A study of Saccharomyces cerevisiae S288C with 6 samples.

Results

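The A3-cluster factors are a group of nucleolar proteins that act together in early assembly of the large (60S) ribosomal subunit of budding yeast. The 7 genes described here, NOP7, ERB1, YTM1, RLP7, NOP15, CIC1 and RRP1, were taken by name from a table of 7126 rows, and all 7 had a row. They are compared between 3 libraries labelled homozygous ltv1 deletion (genotype ltv1-/ltv1-, strain number EDS615) and 3 labelled wild type (strain number EDS76). Both strains are S288C, grown overnight in the rich medium YPD at 30 °C and harvested at an optical density of 0.5 to 0.6. Each genotype is 1 strain, and no label ties a replicate to its own culture, so the p-values below measure the spread between these samples, which may be technical. Ltv1 helps to assemble the small (40S) subunit, and the design compares expression with and without its gene.

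Ribosomal RNA of the large subunit is cut from a long precursor in the nucleolus. The A3-cluster factors are needed to trim the 5′ end of the intermediate called 27SA3, and they bind the pre-60S particle interdependently, so that losing one weakens the binding of others. Nop7, Erb1 and Ytm1 form a stable complex that is conserved in humans as the complex of pescadillo, Bop1 and Wdr12, while Rlp7, Nop15 and Cic1 bind on or near the spacer that is removed later (internal transcribed spacer 2). Genes of this kind belong to the ribosome biogenesis group of yeast, whose upstream regions often carry the motifs called PAC and RRPE.

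The upstream regions of the members are shown because they hold those motifs at like distances. The 300 bases before each start codon were searched on both strands for GATGAG, the core of PAC, and AAAATTTT, a core of RRPE that reads the same on both strands. Matches may overlap. Each stretch below runs from 10 bases before the first match to 10 bases after the last, on the strand of the gene (RefSeq, build R64), with matches in capitals; CTCATC is GATGAG on the other strand.
NOP7 (chrVII:695266-695330, + strand): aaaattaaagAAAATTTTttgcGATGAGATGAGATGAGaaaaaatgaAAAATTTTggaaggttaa
ERB1 (chrXIII:370595-370645, - strand): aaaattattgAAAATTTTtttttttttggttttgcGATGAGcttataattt
YTM1 (chrXV:832634-832727, + strand): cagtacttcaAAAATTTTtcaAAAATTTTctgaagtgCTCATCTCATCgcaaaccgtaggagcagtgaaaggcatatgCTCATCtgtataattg
RLP7 (chrXIV:627222-627291, - strand): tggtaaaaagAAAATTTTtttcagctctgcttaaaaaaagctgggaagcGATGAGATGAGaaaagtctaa
NOP15 (chrXIV:418578-418650, - strand): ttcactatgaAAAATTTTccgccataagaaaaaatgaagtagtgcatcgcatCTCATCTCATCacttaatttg
CIC1 (chrVIII:210697-210740, + strand): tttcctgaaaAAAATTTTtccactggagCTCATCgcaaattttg
RRP1 (chrIV:618410-618435, - strand): aaaaaaatgcGATGAGctgaaaaaaa

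GATGAG was found in 7 of 7 members, against 19.1% of 6002 nuclear protein-coding genes in windows of the same length. AAAATTTT was found in 6 of 7 members, RRP1 being the exception, against 9.41% of all genes. Both motifs stood in the windows of those 6 members, against 4.45% of all genes. The GATGAG matches lay between 142 and 88 bases before the start codon, and in 6 of 6 members with both motifs an AAAATTTT match lay farther from the gene than any GATGAG match. GATGAG read in the direction of the gene in NOP7, ERB1, RLP7 and RRP1, and in the opposite direction in YTM1, NOP15 and CIC1. In genes of neighbouring steps, both motifs were found in 5 of 10 other factors of 27SA3 processing and 10 of 11 factors of the next step, in 1 of 4 genes of Rea1 and the Rix1 complex, in 0 of 4 genes for spacer removal, and in 0 of 8 genes of the ribosomal proteins L17, L26, L35 and L37. Counted alone, GATGAG was in 10 of 10, 10 of 11, 1 of 4, 2 of 4 and 3 of 8 genes of these lists, in the same order. AAAATTTT alone was in 5 of 10, 10 of 11, 4 of 4, 1 of 4 and 0 of 8. A match describes these letters in this window and is not a test of binding.

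**Figure D1:**
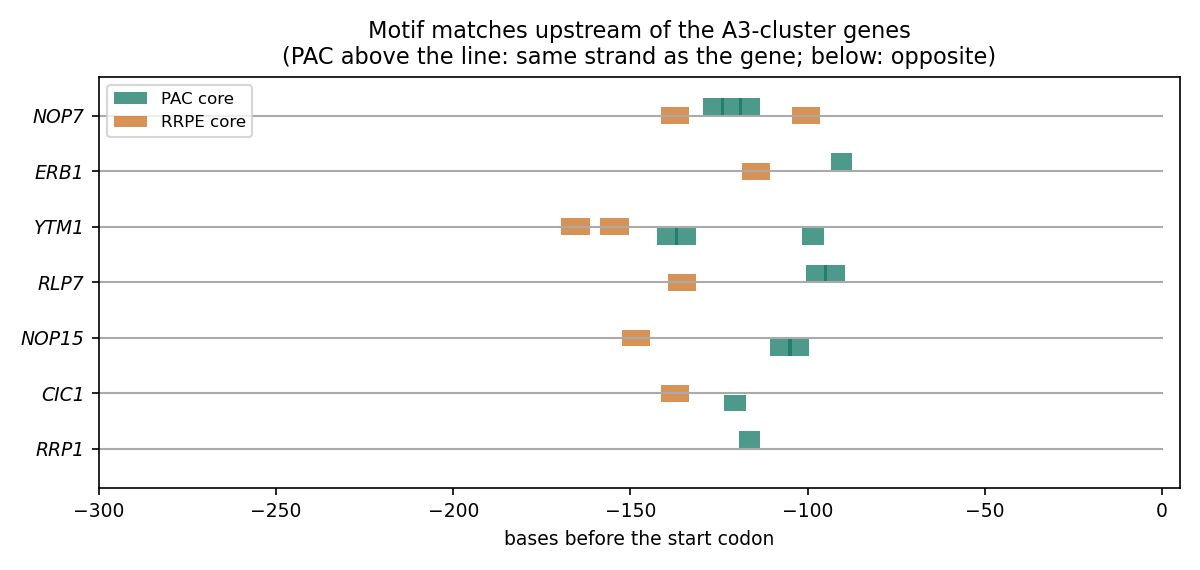
Matches to the PAC core (green) and the RRPE core (orange) in the 300 bases before the start codon of each A3-cluster gene. The x axis is the distance from the start codon in bases, and PAC matches sit above the line when they read with the gene and below it when they read against it. All GATGAG matches lie between 142 and 88 bases before the start.

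Polyadenylated RNA was measured by 3' tag sequencing, in which each tag comes from the 3' end of a transcript, and values are normalized read counts. Turned back into whole reads, the libraries held between 1002573 and 1248710 each. The members had between 163 and 2932 reads each in an ltv1 deletion library and between 40 and 767 in a wild type library. LTV1 itself (YKL143W) did not follow the labels. It stood at 680, 3.22 and 6.40 in the libraries labelled ltv1 deletion 1, 2 and 3, against 29.2, 190.6 and 8.77 in those labelled wild type 1, 2 and 3. The library labelled ltv1 deletion 1 was the highest and the groups overlapped; the 3 libraries of strain EDS615 held 647, 3 and 7 LTV1 reads and so differed among themselves. How much of the gene was removed is not stated, and a tag outside the removed part would be no check. Directions below go by the labels, and results are also given without the libraries labelled ltv1 deletion 1, where LTV1 was high, and wild type 3, where it was low. Among the wild type libraries number 1 stood apart, with 5.66% of its reads from the glycolysis gene TDH3 against 1.33% to 2.88% in the other 5. Mating pheromone genes, which diploid cells keep silent, had at most 3 reads each in any library (MFA1, MFA2 and both MF(ALPHA) genes). The a-specific genes STE2 and STE6, which diploid cells also repress, had reads in all 6 libraries. STE2 had 16 to 29 reads in ltv1 deletion libraries and 17 to 35 in wild type libraries, and STE6 had 22 to 35 in ltv1 deletion libraries and 31 to 39 in wild type libraries. The a-specific gene BAR1 had 1 to 4 reads in ltv1 deletion libraries and 1 to 6 in wild type libraries. Alpha-specific genes had reads in all libraries too, SAG1 with 6 to 10 in ltv1 deletion and 6 to 24 in wild type. STE3 had 4 to 8 reads in ltv1 deletion libraries and 1 to 3 in wild type libraries, without overlap. The 6 haploid-specific genes GPA1, STE4, STE18, STE5, FUS3 and RME1 summed to between 34.7 and 67.7 normalized counts in ltv1 deletion libraries and between 79.1 and 164 in wild type libraries. STE4 made up most of each sum, with 42.0, 49.4 and 25.6 in ltv1 deletion 1, 2 and 3. Wild type 1, 2 and 3 held 124, 59.4 and 87.7 of it. STE4 was the 1 gene of this list whose groups did not overlap. Averaged over the list as log2 levels, the groups overlapped. Those averages were -0.01, -0.05 and -0.73 for ltv1 deletion 1, 2 and 3. For wild type 1, 2 and 3 they were 0.94, -0.02 and -0.12. Of the 3 haploid-specific genes tested, 0 passed the threshold in limma and 1 (STE4) had an unadjusted p under 0.05, while 1 passed in edgeR and 1 in DESeq2. Their part in the results below was not tested.

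All 7 members were higher in the libraries labelled ltv1 deletion, by 2.68-fold (CIC1) to 6.62-fold (NOP7) in limma. The test was limma on log2(value + 1), with Benjamini-Hochberg adjustment over the 5663 genes whose mean was at least 5, and 7 of 7 members passed an adjusted p of 0.05. Over all genes tested, 8.88% passed in the same direction and 15.9% in either. The median log2 fold change of the members was 2.14, beside -0.02 over all genes. In RNA from whole cultures, a change in every cell and a change in the share of cells cannot be told apart. In 7 of 7 members the lowest ltv1 deletion library lay above the highest wild type library, as in 21.6% of all genes tested. The number of members called fell to 1, 2 and 1 without the libraries labelled ltv1 deletion 1, 2 and 3. Over the whole table it fell from 898 genes to 180, 190 and 24 in the same cases. Without wild type 1, 5 members and 584 genes of the whole table were called, and without wild type 3, 5 members and 548 genes. Without both ltv1 deletion 1 and wild type 3, 0 members and 16 genes of the whole table were called. There 7 of 7 members had an unadjusted limma p under 0.05, as had 1446 of the 5663 genes. The median log2 fold change of the members was then 2.27.

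**Figure D2:**
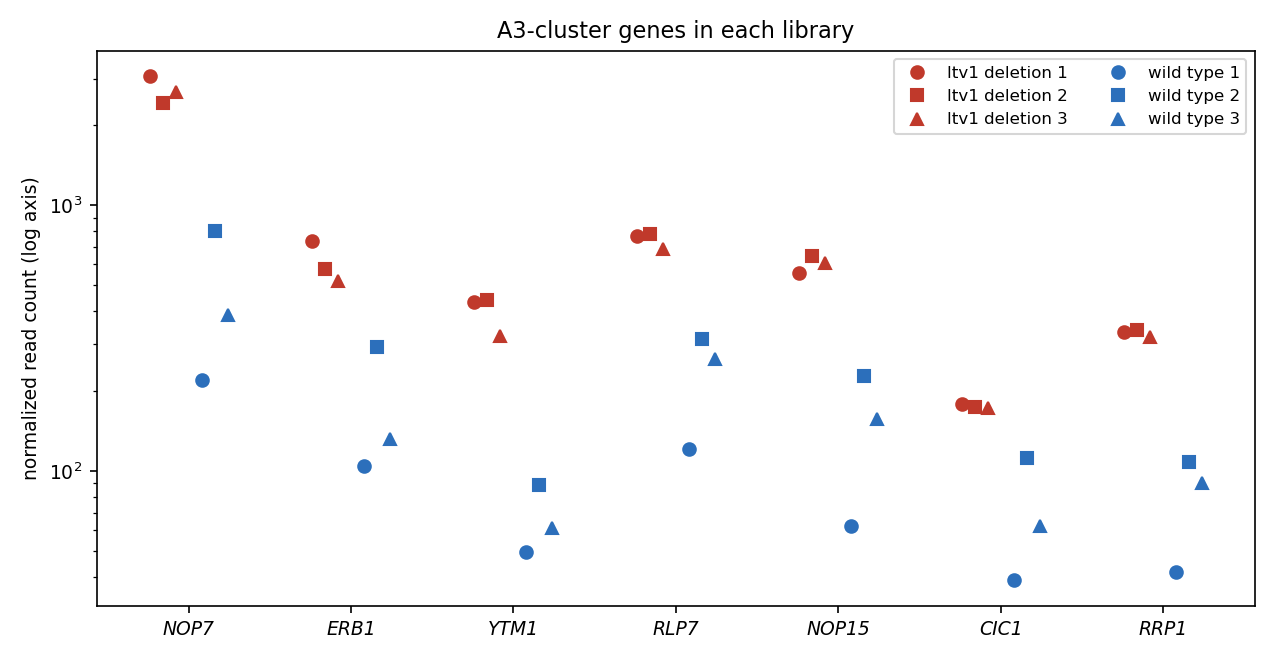
Normalized read count (log axis) of each A3-cluster gene in each library, ltv1 deletion in red and wild type in blue, with 1 symbol per replicate number. In all 7 genes the 3 ltv1 deletion libraries lie above the 3 wild type libraries, of which wild type 1 is the lowest and wild type 2 the highest.

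NOP7 (YGR103W, chromosome VII, 695417 to 697234, build R64) encodes the pescadillo homologue of the Nop7-Erb1-Ytm1 complex. NOP7 had 3067, 2418 and 2679 normalized reads in ltv1 deletion 1, 2 and 3, against 219.6, 799 and 387 in wild type 1, 2 and 3. The lowest ltv1 deletion library was 3.03 times the highest wild type library. The means were 2722 ± 327 in ltv1 deletion and 468 ± 298 in wild type (SD, n = 3 each). The difference was 2.73 on the log2 scale, SE 0.44 (limma adjusted p = 0.0153), which is 6.62-fold with a 95% interval of 3.25 to 13.5. This was the largest of the 7 in limma, while YTM1 was larger by the ratio of means (6.00 for YTM1, 5.81 for NOP7), in edgeR (2.59 for YTM1, 2.54 for NOP7) and in DESeq2 (2.59 for YTM1, 2.54 for NOP7). Its call ended without ltv1 deletion 1 (limma adjusted p = 0.0507) and without ltv1 deletion 3 (limma adjusted p = 0.0638).

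ERB1 (YMR049C, chromosome XIII, 368094 to 370517) encodes the scaffold of the same complex, a WD40 protein that binds both other subunits. It stood at 733, 575 and 519.97 in ltv1 deletion 1, 2 and 3, against 105, 293 and 133 in wild type 1, 2 and 3. Wild type 2 was 2.79 times wild type 1, and the groups did not overlap. The means were 609 ± 110.4 in ltv1 deletion and 177 ± 101 in wild type (SD, n = 3 each), a log2 fold change of 1.91, SE 0.39 (limma adjusted p = 0.0217). With 1 library left out the call held only without wild type 2, and in the other 5 cases the limma adjusted p was between 0.0501 and 0.0721.

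YTM1 (YOR272W, chromosome XV, 832813 to 834195) encodes the WD40 subunit that the ATPase Rea1 pulls from the particle when the complex is released. It stood at 433, 439.6 and 323 in ltv1 deletion 1, 2 and 3, against 49.6, 88.5 and 61.4 in wild type 1, 2 and 3. The groups lay farther apart than in any other member, the lowest ltv1 deletion library being 3.65 times the highest wild type library. The wild type libraries also spread least here, with a coefficient of variation of 30.0%. The difference was 2.59 on the log2 scale, SE 0.28 (limma adjusted p = 0.00901), a 6.03-fold difference with a 95% interval of 3.83 to 9.51. YTM1 alone passed with each of the 6 libraries left out in turn (limma adjusted p between 0.00632 and 0.0402), and it ended at 0.0757 without both ltv1 deletion 1 and wild type 3. By p it ranked 11 among the 5663 genes.

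RLP7 (YNL002C, chromosome XIV, 626174 to 627142) encodes a protein related in sequence to ribosomal protein L7 that binds the spacer region. It stood at 765, 780.3 and 687 in ltv1 deletion 1, 2 and 3, against 121, 316 and 265 in wild type 1, 2 and 3. The ltv1 deletion libraries lay close together and wild type 1 was well under the other wild type libraries. For RLP7 the log2 fold change came to 1.77, SE 0.36 (limma adjusted p = 0.0217). NOP15 (YNL110C, chromosome XIV, 417826 to 418488), which encodes an RNA recognition motif protein of the same site, stood at 557, 645 and 605 in ltv1 deletion 1, 2 and 3, against 62.2, 228 and 157 in wild type 1, 2 and 3. The lowest ltv1 deletion library was 2.44 times the highest wild type library. For NOP15 it came to 2.19, SE 0.45 (limma adjusted p = 0.0214). Both calls ended without any 1 of the ltv1 deletion libraries, at a limma adjusted p of up to 0.0725 for RLP7 and 0.0730 for NOP15.

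CIC1 (YHR052W, chromosome VIII, 210848 to 211978), also called NSA3, encodes a relative of ribosomal protein L1 that binds the same spacer. It stood at 179.8, 175 and 173 in ltv1 deletion 1, 2 and 3, against 38.9, 112 and 62.4 in wild type 1, 2 and 3. The ltv1 deletion libraries were nearly equal, with a coefficient of variation of 2.03%, and wild type 2 came nearest to them, the lowest ltv1 deletion library being 1.54 times as high. The log2 fold change was the smallest of the 7, at 1.42, SE 0.37 (limma adjusted p = 0.0403). Its call ended in 5 of 6 cases with 1 library left out, wild type 2 being the exception, and also with no filter on low values (0.0614) and with libraries scaled to equal totals (0.0531).

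RRP1 (YDR087C, chromosome IV, 617470 to 618306) encodes the homologue of the human nucleolar protein Nop52 and is needed for the same processing step. It stood at 334, 339.6 and 319 in ltv1 deletion 1, 2 and 3, against 41.8, 108 and 90.6 in wild type 1, 2 and 3. The lowest ltv1 deletion library was 2.94 times the highest wild type library. RRP1 thus had a log2 fold change of 2.14, SE 0.36 (limma adjusted p = 0.0161), and the call ended without any 1 of the ltv1 deletion libraries, at up to 0.0652.

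**Figure D3:**
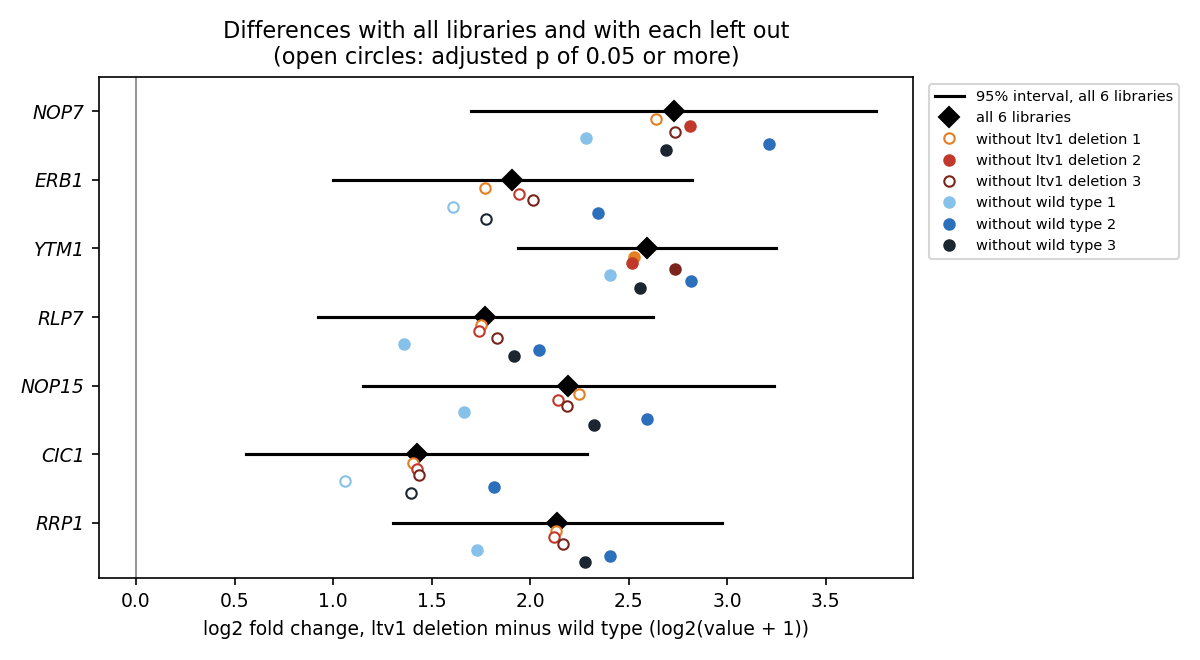
Log2 fold change (ltv1 deletion minus wild type) of each A3-cluster gene with all 6 libraries (diamond, with the 95% interval of the limma fit) and with each library left out (circles, filled where the adjusted p over all genes was under 0.05). Every value is above 0, those without wild type 1 are the lowest in each gene, and YTM1 has 6 of 6 circles filled.

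The 7 genes varied together across libraries. In 7 of 7 the lowest value was that of wild type 1 and the highest wild type value that of wild type 2, and the coefficient of variation was between 2.03% and 18.1% in ltv1 deletion but between 30.0% and 63.6% in wild type. Together they took 0.536%, 0.463% and 0.481% of the reads in ltv1 deletion 1, 2 and 3, against 0.0526%, 0.186% and 0.0999% in wild type 1, 2 and 3. The wild type libraries thus differed among themselves by more than 3 times in this share. Relative to the mean of the 6 libraries, the mean log2 level of the members was 1.14, 1.07 and 0.95 in ltv1 deletion 1, 2 and 3, and -1.81, -0.35 and -1.003 in wild type 1, 2 and 3. Pearson's r between 2 members over the 6 libraries was between 0.929 and 0.997 in the 21 pairs, a description in which the group difference and the position of wild type 1 are shared by all points.

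Levels of general stress genes were placed the other way round. Of 10 such genes (HSP12, CTT1, DDR2, HSP26, HSP42, SSA4, TPS1, TSL1, GSY2 and PGM2) 9 were tested and 5 fell in limma, where 6.98% of all genes fell. Their median log2 fold change was -1.77, with the Hsp70 gene SSA4 at -2.05, the glycogen synthase gene GSY2 at -1.77 and the membrane stress gene HSP12 at -3.63. Their mean log2 level was -1.30, -0.80 and -0.71 in ltv1 deletion 1, 2 and 3, and 1.47, 0.37 and 0.97 in wild type 1, 2 and 3. Wild type 1, the lowest library for the members, was the highest by this measure, and wild type 2, the nearest of the wild type libraries to ltv1 deletion for the members, was the nearest here too. The count of 5 fell to 1, 2 and 0 without ltv1 deletion 1, 2 and 3, and to 3 and 1 without wild type 1 and wild type 3. The whole table fell from 898 called genes to 180, 190 and 24, and to 584 and 548, in the same cases. Growth state was not labelled beyond the optical density at harvest, and its part in the difference of the members was not tested.

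**Figure D4:**
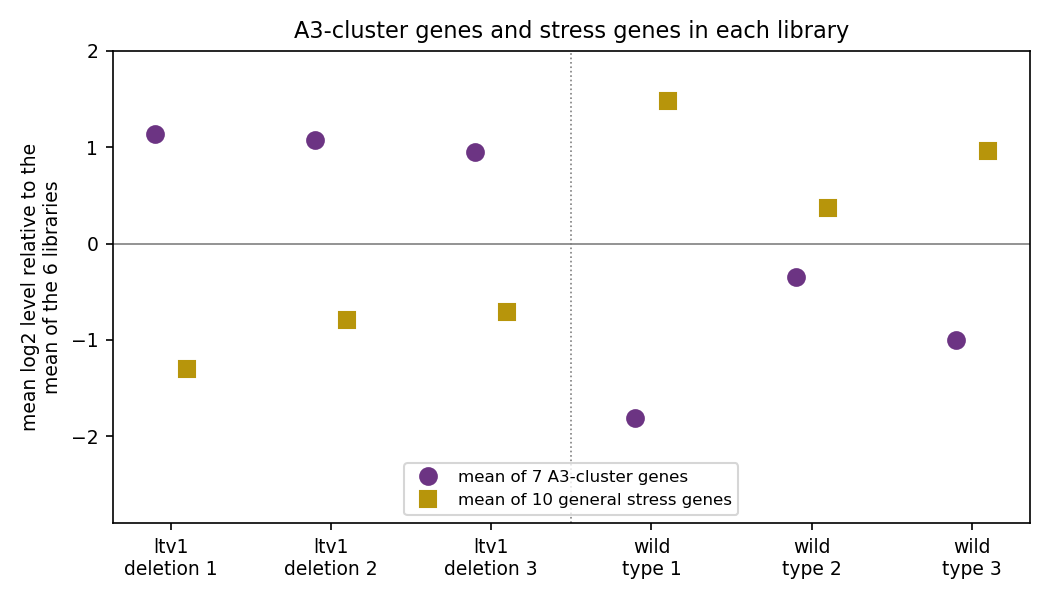
Mean log2 level of the 7 A3-cluster genes (purple circles) and of the 10 general stress genes (yellow squares) in each library, relative to the mean of the 6 libraries. The members are at 0.95 to 1.14 in ltv1 deletion and at -1.81 to -0.35 in wild type. The stress genes are placed the other way round, wild type 1 being the extreme of both by this mean.

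Whether the members differed by the same factor could not be settled with 3 libraries a group. Ratios within a library, which do not depend on how it was scaled, were compared for the 21 pairs of members with an exact two-sided permutation test, whose smallest possible p is 0.1. In 12 of 21 pairs the ratios of the 2 groups did not overlap (exact p = 0.1 each, and an adjusted p of 0.175 over the 21 pairs), as in 42.1% of all pairs of genes tested. The 21 pairs share 7 genes and the same libraries, so they are not independent. No pair could pass a threshold of 0.05 in this design. The largest difference was between NOP7 and CIC1, with a log2 ratio of 3.94 ± 0.15 in ltv1 deletion and 2.63 ± 0.18 in wild type (SD, n = 3 each), a difference of 1.30. Within the Nop7-Erb1-Ytm1 complex, the ratio of NOP7 to ERB1 values was 4.19, 4.21 and 5.15 in ltv1 deletion 1, 2 and 3, against 2.09, 2.73 and 2.92 in wild type 1, 2 and 3. The ratio of YTM1 to ERB1 was 0.591, 0.764 and 0.622 in ltv1 deletion 1, 2 and 3, against 0.472, 0.302 and 0.463 in wild type 1, 2 and 3. In neither ratio did the groups overlap. The ratio of NOP7 to YTM1, at 7.08, 5.50 and 8.28 in ltv1 deletion 1, 2 and 3 and at 4.43, 9.02 and 6.30 in wild type 1, 2 and 3, overlapped (exact two-sided permutation p = 0.8). RRP1 and RLP7 kept the steadiest ratio in wild type, the log2 ratio of RLP7 to RRP1 being 1.17 ± 0.05 in ltv1 deletion and 1.53 ± 0.01 in wild type (SD, n = 3 each).

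Other factors of the same and the next steps were mostly higher too. Of 10 other factors of 27SA3 processing 8 rose, where 8.88% of all genes tested did, with a median log2 fold change of 2.04. Among them were the RNA helicase genes HAS1 at 1.87 (limma adjusted p = 0.0150) and DRS1 at 2.83 (0.0196), and the exonuclease gene RRP17 at 2.12 (0.0203). The 2 that did not pass, named after their values were seen, were the nuclear exonuclease gene RAT1 at 1.17 (0.0549) and its cofactor gene RAI1 at 0.41 (0.194). RAI1 stood at 86.2, 85.99 and 90.5 in ltv1 deletion 1, 2 and 3 against 63.2, 62.5 and 72.1 in wild type 1, 2 and 3. Its groups did not overlap, as in 21.6% of all genes tested in that direction. Of 11 factors of the following step, 27SB processing, 9 rose, with a median of 1.76. RLP24, which encodes a placeholder for ribosomal protein L24, stood at 2.64 (0.0127), NSA2 at 1.48 (0.0140) and the helicase gene SPB4 at 1.62 (0.0174). NIP7 at 0.46 and TIF6 at 0.41, also named after their values were seen, did not pass. Without ltv1 deletion 1, 2 or 3 the factors of 27SA3 processing called were 0 in each case, and those of 27SB processing were 3, 2 and 0. In the same cases 180, 190 and 24 of the 5663 genes tested were called, beside 898 with all 6 libraries.

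The release of Ytm1 and Erb1 depends on Rea1, encoded by MDN1, which later acts with the Rix1 complex. All 4 genes of this list rose, where 8.88% of all genes tested did, with a median log2 fold change of 2.07. MDN1 stood at 1.43 (limma adjusted p = 0.0196), IPI3 at 2.31 (0.0196) and IPI1 at 2.06 (0.0206). IPI1 stood at 50.5, 44.1 and 39.3 in ltv1 deletion 1, 2 and 3 against 4.86, 17.7 and 10.7 in wild type 1, 2 and 3, the last being 5 to 17 reads. Of 4 genes for removal of internal transcribed spacer 2, MTR4, the helicase of the nuclear exosome, rose by 2.16 on the log2 scale (0.0174), as did NOP53, which recruits it, by 2.03 (0.0229). The endonuclease gene LAS1 at 0.44 and its partner GRC3 at 0.54, named after their values were seen, did not pass. Both counts were 0 without any 1 of the ltv1 deletion libraries, where 24 to 190 genes of the whole table were called.

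The ribosomal proteins that join the particle with the help of the A3-cluster factors showed no call. Of the 8 genes for L17, L26, L35 and L37, 0 passed in limma, edgeR or DESeq2, and 0 had an unadjusted limma p under 0.05. Over all genes tested, 8.88% rose and 6.98% fell in limma. Their median log2 fold change was 0.17. RPL37B had the smallest p of them, at 80.9, 75.2 and 77.7 in ltv1 deletion 1, 2 and 3 against 35.0, 55.2 and 68.2 in wild type 1, 2 and 3 (log2 fold change 0.60, standard error 0.28, limma adjusted p = 0.172). In 1 of these 8 genes, RPL37B, the groups did not overlap and ltv1 deletion was higher, as in 21.6% of all genes tested. Of the pair of genes for L7, to which Rlp7 is related, RPL7B rose, at 126, 187 and 109.7 in ltv1 deletion 1, 2 and 3 against 36.0, 62.5 and 56.5 in wild type 1, 2 and 3 (log2 fold change 1.43, standard error 0.31, limma adjusted p = 0.0238). RPL7A, also named after its value was seen, did not pass (log2 fold change 0.19, standard error 0.27, limma adjusted p = 0.642). The call of RPL7B ended in 5 of 6 cases with 1 library left out, wild type 2 being the exception. These genes are near-identical copies, so how reads were shared between RPL7A and RPL7B is uncertain, as it is within the L17, L26, L35 and L37 pairs.

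**Figure D5:**
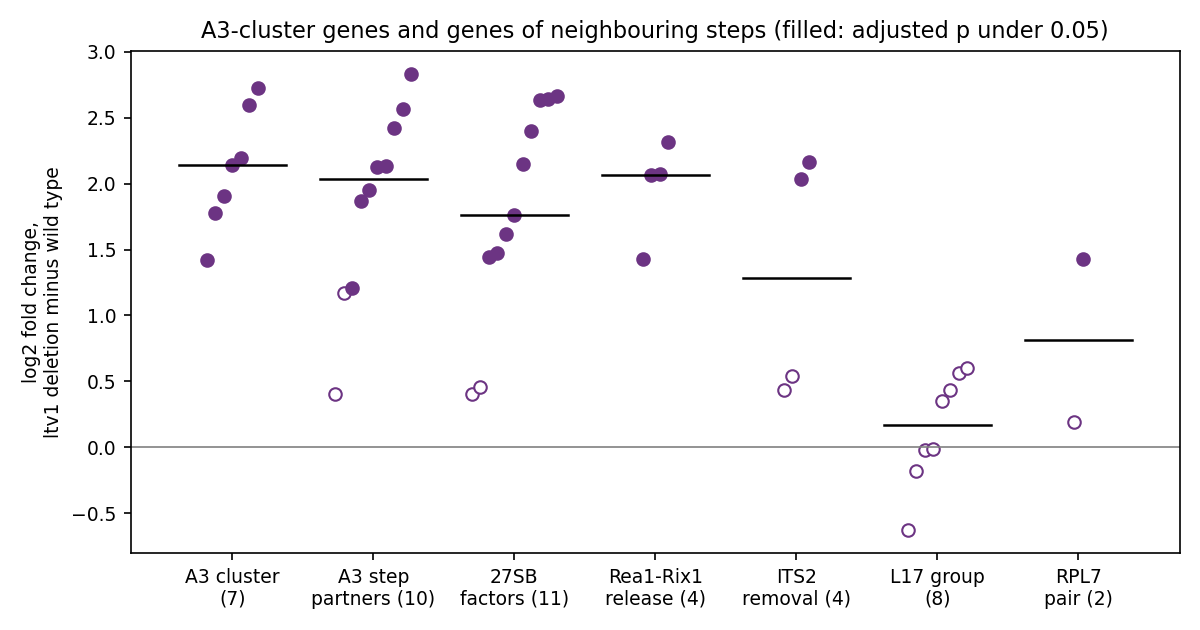
Log2 fold change (ltv1 deletion minus wild type) of each tested gene in the A3 cluster and in lists of neighbouring steps, 1 circle per gene, filled where the limma adjusted p was under 0.05, with the median of each list as a line. The medians are 2.14 in the A3 cluster, 2.04 in other 27SA3 factors, 1.76 in 27SB factors, 2.07 in the Rea1 and Rix1 list, 1.29 for spacer removal and 0.17 for the genes of L17, L26, L35 and L37.

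The genes beside the members on their chromosomes were not called higher. Of 14 neighbouring protein-coding genes 12 were tested, and 0 were higher in limma, edgeR or DESeq2 or at an unadjusted limma p under 0.05. Over all genes tested, 8.88% were called higher and 6.98% lower in limma. Their median log2 fold change was 0.11. In 3 cases the neighbour starts upstream and reads away from the member. GTF1, a nuclear gene for a mitochondrial protein 281 bases from NOP7, stood at 42.0, 40.8 and 42.0 in ltv1 deletion 1, 2 and 3 against 34.0, 27.1 and 46.8 in wild type 1, 2 and 3. FSF1, 770 bases from YTM1, had a log2 fold change of 0.08, and the ribosome rescue gene DOM34, 313 bases from RLP7, had one of -0.11. COX6, upstream of CIC1 and on the same strand, was the 1 neighbour that fell, with a log2 fold change of -1.92 (limma adjusted p = 0.0201). Whether counting used strand is not stated. The nearest convergent neighbour is CSM3, whose annotated end lies 159 bases from that of ERB1, and its values of 53.6, 24.7 and 27.4 in ltv1 deletion 1, 2 and 3 and of 19.4, 26.0 and 15.6 in wild type 1, 2 and 3 overlapped.

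The genes whose pattern over the 6 libraries was most like the mean of the members were HCA4, ENP1, URA7, SDA1 and UTP23, by Pearson's r of log2(value + 1) among 3324 genes with a mean of at least 50. Rounded to 3 digits their r was 0.999 in each case, and their log2 fold changes were 3.42, 2.44, 3.01, 3.18 and 3.18. HCA4, a helicase gene of the small-subunit pathway, stood at 574, 535 and 455 in ltv1 deletion 1, 2 and 3 against 18.5, 105 and 54.6 in wild type 1, 2 and 3. Its wild type values were in the same order as those of the members. An r over 0.9 was reached by 564 of the 3324 genes, so a like pattern was common in these libraries.

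The authors' deposited table holds its own comparison, with a log2 fold change of 2.20 for YTM1, 1.72 for NOP7, 1.58 for NOP15, 1.45 for RRP1, 1.44 for RLP7, 1.25 for ERB1 and 0.93 for CIC1. YTM1 (adjusted p = 0.00124 in the authors' deposited table) was the only member that the table classed as significant, where 0.621% of the 5472 genes with an adjusted p were so classed and higher. The adjusted p of the other 6 members in the authors' deposited table was between 0.119 and 0.878. The mean level of YTM1 in the authors' deposited table, 288, is not the mean of the 6 libraries. The authors' fit may therefore have used values not analysed here, and its fold changes and p-values need not describe these 6 libraries alone. Further, 52.1% of the p-values in the authors' deposited table are exactly 1. How the authors' test was set is not stated, so its calls and those made here may not answer the same question. With count tests on the recovered reads, 7 of 7 members passed in edgeR, where 10.5% of all genes passed in that direction, and in DESeq2, where 11.6% did. The edgeR adjusted p was between 0.00361 (YTM1) and 0.0268 (CIC1).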

How the data were processed

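Expression was measured in 6 libraries, 3 labelled ltv1 deletion and 3 labelled wild type. Per the labels' protocols, 3' tag libraries with molecular identifiers were sequenced as single-end reads. DESeq2 1.34.0, R 4.1.3, Salmon, STAR, Trim Galore and FastQC were named, with build R64, in what is listed per the submitters' processing notes. How they were set, and whether molecular identifiers were used, is not stated. The deposited signal per gene and library is a count divided by a size factor: dividing by a fixed step in each library gave whole reads, within 0.01, for 100% of values. The authors' deposited table also holds their log2 fold changes, standard errors, p-values and mean signal.

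Here limma 3.58.1 in R 4.3.3 was run on log2(value + 1) of genes with a mean of at least 5, without trend, and adjusted by Benjamini-Hochberg over 5663 genes. The fold change is on that scale, which understates low genes. edgeR 4.0.16 and DESeq2 1.42.0 on the recovered reads were alternatives. The members and lists were chosen with earlier results of these data known. Genes named are the members, LTV1, up to 3 called genes per list and direction with the smallest adjusted p (or the 1 with the smallest p), the genes next to each member, and the 5 with the most similar pattern. List members that did not pass were also named, after their values were seen. All genes of the stress, a-specific, alpha-specific and haploid-specific lists are named as well. Of 7126 identifiers 6048 matched the R64 annotation. On simulated data (5 runs of 5663 genes at the depths of this comparison) limma called 89.8% of genes changed 4-fold. It called 15.6% of those changed 2-fold and 0.0659% of unchanged genes. Whether these rates hold for the 6 libraries was not tested. There the coefficient of variation of the members was 2.03% to 18.1% in ltv1 deletion and 30.0% to 63.6% in wild type. Precision is limited by 3 libraries a group, and molecular identifiers may not have been used to count molecules.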

Additional observations from a re-analysis of the deposited data

How the results depend on the processing

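No member changed direction under any of the 18 alternatives, but much of this was built in. The groups did not overlap in 7 of 7 members, so leaving out libraries could not turn a sign. The threshold, filter, trend and block settings left the fold change itself unchanged. YTM1 passed in 17 of the 18 alternatives, NOP7 in 14, RLP7, NOP15 and RRP1 in 13 each, ERB1 in 11 and CIC1 in 8. With a threshold of 0.01, 1 member (YTM1) passed, 24 genes did over the whole table, and 0 did in each companion list. Leaving out 1 library, or ltv1 deletion 1 with wild type 3, gave 16 to 977 genes over the whole table (898 with all), 0 to 7 members, 0 to 9 other factors of 27SA3 processing, 0 to 9 factors of 27SB processing, 0 to 4 genes of Rea1 and Rix1, 0 to 2 of spacer removal, 0 to 1 of the L7 pair and 0 to 6 stress genes. Part of this is built in, since fewer samples were used. LTV1 turned sign with edgeR (1.59) and DESeq2 (1.59), and ranged from -3.77 to 0.89 with libraries left out. Its ratio of means was 3.02, with a value of 680 in ltv1 deletion 1. Without that library its limma log2 fold change was -2.78. The cause was not tested. The pair ratios without overlap numbered 12 to 14 of 21. With a library left out this number could not fall under 12, since groups that do not overlap stay apart.

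No pairing by replicate number was seen. Deviations from the group means correlated at -0.20 to 0.07 between same-numbered libraries of the 2 groups, and at -0.17 to 0.28 between differently numbered ones. With 3 libraries a group these values are too few to settle whether libraries were paired. With the replicate number as a block, 430 genes passed over the whole table (279 higher), 6 members and 2 stress genes, and CIC1 had a limma adjusted p of 0.0696. Counting limits YTM1, CIC1 and RRP1 most, with 51, 40 and 43 reads in wild type 1.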
